A study of Mus musculus with 31 samples.

Results

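Integrins are the transmembrane receptors through which epithelial cells hold on to the extracellular matrix, and 9 genes encoding integrin subunits were followed through ribosome profiling and total RNA sequencing of stressed squamous cell carcinoma cells. The genes were Itga2, Itga3, Itga5, Itga6 and Itgav, which encode alpha subunits, and Itgb1, Itgb4, Itgb5 and Itgb6, which encode beta subunits. They were taken by symbol through their Entrez identifiers, and each had a row in both count tables, 9 of 20704 genes for ribosome-protected fragments (RPFs) and 9 of 24593 for total RNA.

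The cells were a mouse skin squamous cell carcinoma (SCC) line carrying HRasG12V and, by the labels, TgfbrIIfl/fl, whereas the study writes the gene as deleted in its fully transformed cells. CRISPR/Cas9 had removed the endogenous Eif2s1 alleles, and a lentiviral, myc-tagged Eif2s1 transgene under the PGK promoter supplied eIF2α either as wild type (S51) or with alanine at serine 51 (S51A), the form that cannot be phosphorylated in the integrated stress response. Both lines were sampled under vehicle and after 100 nM bortezomib, a proteasome inhibitor, for 4.5 h by the labels. Each of the 4 groups had 4 libraries per readout, except S51 vehicle with 3 RPF libraries, which gave 15 RPF and 16 total RNA libraries. The study pooled a pair of clones per genotype and no label names the clone of a library, so that genotype and clone cannot be told apart. Captions of the study call the libraries of a group independent biological replicates, while its text on the profiling also speaks of technical replicates. P-values set each contrast against the spread between libraries within groups, estimated over all groups of a fit, whichever kind of replicate the libraries are. GEO's series note records that sample titles of the S51 bortezomib and S51A vehicle groups were exchanged after deposition, and the numbered columns were read accordingly.

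Library totals ran from 1038826 to 4902237 counts for RPFs and from 18758668 to 22994713 for total RNA. The labelled treatment was visible in Hspa1b, an inducible chaperone gene, whose RPFs stood at 25.9 to 38.6 CPM (read counts scaled to library size) in vehicle and 596 to 1107 CPM in bortezomib libraries. RPFs of Atf4, the transcription factor whose translation rises with eIF2α phosphorylation, went from 189 ± 20.1 CPM to 519.6 ± 16.3 CPM (SD, n = 3 and 4) in S51 and from 126 ± 18.9 CPM to 132 ± 16.04 CPM (n = 4 and 4) in S51A. Eif2s1 total RNA lay between 279 and 314 CPM in all 16 libraries. Its RPFs were 81.2 to 171 CPM in S51 vehicle and 213 to 260 CPM in S51A vehicle libraries. Under bortezomib they were 148 to 196 CPM in S51 and 190 to 235 CPM in S51A libraries. Because gene counts do not separate the transgenes, these values do not check the genotype. Markers of basal keratinocytes (7 genes, among them Krt5, Krt14 and Trp63) summed to 23352 to 34910 CPM of RPFs. Marker sums of other cell types were low: 0.483 to 9.99 CPM for 8 fibroblast genes, 7.28 to 16.9 CPM for 6 immune genes, 0.967 to 8.61 CPM for 4 endothelial genes and 0 to 1.51 CPM for 4 melanocyte genes, and Col1a2, Dcn, Thy1, Cd3e, Lyz2, Cdh5, Tek, Dct and Tyr had 0 RPF counts in every library. Between vehicle-treated lines Pdgfra, at most 9.34 CPM in any RPF library, was called higher and Kdr, at most 8.61 CPM, lower in S51A, and the keratinocyte sum was 23352 to 28140 in S51 vehicle, 27335 to 31446 in S51 bortezomib, 27606 to 29719 in S51A vehicle and 29354 to 34910 in S51A bortezomib libraries. Of the 7 keratinocyte genes, Sfn was called higher and Krt15 lower in RPFs of S51A vehicle than of S51 vehicle cells. With bortezomib, Trp63 RPFs were called lower in both lines and those of Krt15 higher in S51. The part of these markers in the integrin results was not tested.

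A library of the S51 vehicle RPF group stood apart, over all tested genes as well as for the integrins. Log2 CPM of replicate 2 correlated at 0.953 and 0.946 with replicates 1 and 3, which correlated at 0.988 with each other. The chi-square per gene of its counts was 12.8 and 18.1 against these libraries, and 2.06 between them. S51 vehicle RPF replicate 2 held 479.6 CPM of Itgb1, against 924 and 1020 CPM in the other libraries of its group. The same library was highest of its group for Itga3, Itga5 and Itgb4 and lowest for Itga2, Itga6, Itgav, Itgb1, Itgb5 and Itgb6. Printed estimates for the subunits that it moved by over 1.5 times or in sign are given with and without it. The shares of all tested genes and the counts and values of the other gene lists include it. As all groups share a fit, the library also bears on standard errors of RPF contrasts that do not use it. Without it, the number of subunits called in RPFs was 2 for bortezomib in S51 and 4 between vehicle-treated lines, as with it.

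An integrin is an obligate pair of 1 alpha and 1 beta subunit, and the pair sets the ligand: α6β4 and α3β1 bind laminin, α2β1 binds collagen, α5β1 binds fibronectin, and αv with β5 or β6 binds matrix proteins that carry the RGD motif. In skin, α6β4 forms the core of the hemidesmosome, which ties basal keratinocytes to the basement membrane through plectin and the keratin network, whereas β1 integrins gather in focal adhesions linked to actin. Integrin αvβ6 also activates latent TGF-β.

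Positions below are from the RefSeq annotation of GRCm38.p6. Itga6 (chr2:71786886-71858427, plus strand, 25 exons), Itgav (chr2:83722303-83806917, plus strand, 30 exons) and Itgb6 (chr2:60598292-60722603, minus strand, 18 exons) lie on the same chromosome. Itga3 (chr11:95044475-95076844, minus strand, 26 exons) and Itgb4 (chr11:115974725-116008412, plus strand, 40 exons) also share one. Itga2 lies at chr13:114833081-114932100, minus strand, 30 exons, and Itga5 at chr15:103344286-103366791, minus strand, 30 exons. Itgb1 is found at chr8:128685654-128733579, plus strand, 16 exons, and Itgb5 at chr16:33829665-33949338, plus strand, 15 exons. Exon numbers are those of the longest coding isoform in RefSeq.

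RefSeq promoter windows, from 250 bases before to 50 after a start site, were given for 7 of the 9 genes, Itga6 and Itgb4 being without one, in 9 windows of 32851 in all. Both strands were searched for 4 motifs. The GC box GGGCGG was in the windows of 6 genes (Itga2, Itga3, Itga5, Itgav, Itgb1 and Itgb5) but not of Itgb6, and 38.2% of all genes with a window held it. TGANTCA, which includes the AP-1 site, was in a window of Itga3 alone, as in 8.97% of all genes. The ATF4 element TGATGNAAN (4.50000% of all genes) and a heat shock element (0.662%) were in none of these windows. A match is a description of letters and not a binding site. The Itga3 match to TGANTCA reads TGAATCA, a fit to this looser pattern that need not be an AP-1 site. Windows of a few matches are printed for genes whose levels are compared below, in lower case with the GC box or its complement CCGCCC in capitals, 5′ to 3′ on the strand of the gene.
Itga2, chr13:114932084-114932107, minus strand: ggcaggcagGGGCGGttcctagct
Itga5, chr15:103366926-103366949, minus strand: aggctccctCCGCCCcccagaggt
Itgb1, chr8:128685494-128685517, plus strand: tttccagccGGGCGGccggcgccc
Itgb5, chr16:33829593-33829616, plus strand: cccggtgcaGGGCGGagctggtcc
Itgb5, chr16:33829457-33829480, plus strand: gagcgcgccCCGCCCcctcccaac

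To compare genes, CPM were divided by length, RPFs by the kilobases of coding sequence without the first 15 and last 5 codons and total RNA by the kilobases of transcript. In S51 vehicle cells, RPF density was 444 ± 98.7 CPM per kb for Itga3, 346 ± 123 for Itgb1, 239 ± 24.9 for Itga6 and 209 ± 55.7 for Itgb4 (SD, n = 3), and neighbours among these 4 overlapped in their ranges. Without replicate 2, a comparison chosen after seeing the data, Itgb1 came first at 416 CPM per kb and Itga3 second at 388, with overlapping ranges. Next came Itgav at 75.5 ± 7.96 and Itgb6 at 24.1 ± 2.12 CPM per kb, each apart from its neighbours. The lowest densities were 5.06 ± 1.69 for Itga5, 3.03 ± 0.967 for Itga2 and 1.66 ± 0.597 for Itgb5, the last pair overlapping.

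In total RNA of S51 vehicle cells Itgb1 stood at 269.8 ± 7.64 CPM per kb of transcript, Itga6 at 214 ± 6.33, Itga3 at 149 ± 8.79 and Itgb4 at 56.6 ± 2.46 (SD, n = 4), with no overlap between neighbours. The order of the leading genes depended on the line: in S51A vehicle cells Itga6 led in total RNA with 364 ± 4.76 CPM per kb and in RPFs with 441 ± 10.9 CPM per kb (n = 4 each). Under bortezomib Itgb1 led in RPFs in both lines, with 504 ± 32.97 CPM per kb in S51 and 422 ± 30.5 in S51A.

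**Figure D1:**
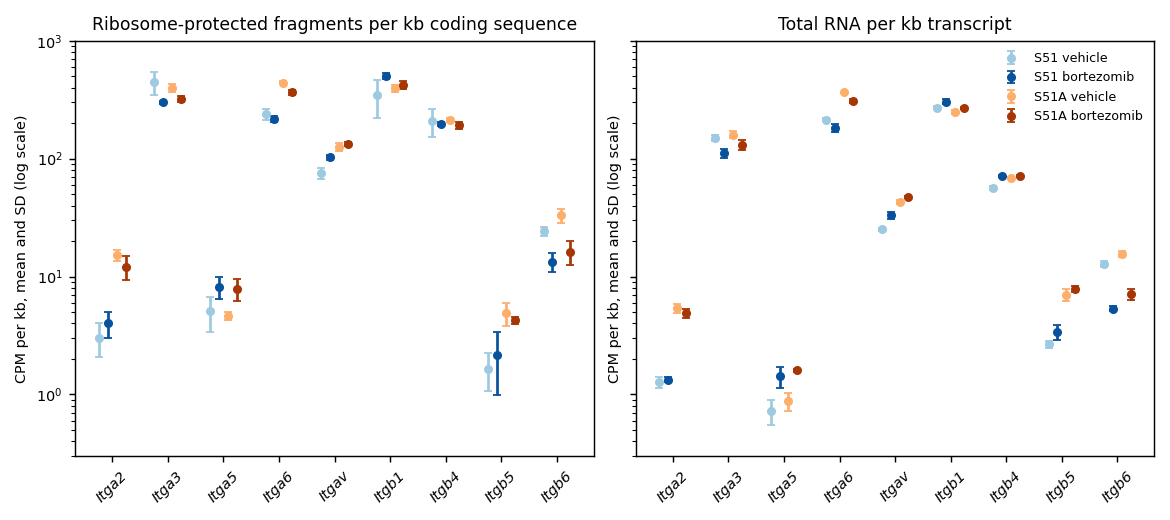
Level of each integrin subunit per kilobase on a log axis, RPFs on the left and total RNA on the right, as mean and SD over 3 libraries (S51 vehicle RPF) or 4 libraries (all other groups). Itga3, Itga6, Itgb1 and Itgb4 are the 4 highest in every group, and Itga2, Itga5 and Itgb5 are among the lowest.

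The position of a gene's RPF density against its total RNA, its steady-state ratio, differed widely between subunits. In S51 vehicle cells the ratio per length, over that of the median gene, was 3.64 for Itga5 (percentile 95.2 of 9393 genes), 1.92 for Itgb4 and 1.56 for Itgav. It was 0.666 for Itgb1, 0.580 for Itga6 and 0.323 for Itgb5 (percentile 7.93). These values include S51 vehicle RPF replicate 2. Without it the RPF density was 4.08 CPM per kb for Itga5, 177 for Itgb4 and 416 for Itgb1. In S51A vehicle cells, with none of these libraries, the ratios were 2.74 for Itga5, 1.60 for Itgb4 and 1.51 for Itgav. There Itgb1 stood at 0.821, Itga6 at 0.625 and Itgb5 at 0.360. Itga5 stayed between percentiles 90.9 and 95.2 in the 4 groups, and Itgb5 between 5.18 and 8.896. The sources do not say which part of the transcript was counted for total RNA. With coding length for both readouts the S51 vehicle value was 5.58 for Itga5, 3.63 for Itgb4 and 0.516 for Itgb5.

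The study asked how the integrated stress response shapes translation under proteotoxic stress, and the vehicle contrast, S51A over S51, shows where the lines stood without the drug. Under vehicle, 4 of the 9 subunits were called higher in S51A than in S51 in RPFs and none lower, where 15.8% of all tested genes were called in either direction (9.19% higher). A call here means an adjusted p under 0.05 and a fold change above 1.5. The 4 were Itga2, Itga6, Itgav and Itgb5, and total RNA called the same 4 (17.5% of all tested genes called, 11.2% higher). The median log2 fold change of the 9 was 0.47 in RPFs and 0.29 in total RNA, with 0.014 and 0.00300 over all genes. On the adjusted p alone, 5 of the 9 passed in RPFs (28.6% of all tested genes) and 7 in total RNA (63.8%). Library ranges did not overlap for 5 subunits in RPFs and 6 in total RNA, as for 33.0% and 56.6% of all tested genes. In bulk RNA, more cells of a kind and more RNA per cell cannot be told apart.

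Itga2, the collagen receptor subunit, had the largest estimate of the 9. Its RPFs were 11.7, 6.77 and 13.2 CPM in S51 vehicle, 18.9, 10.5, 12.5 and 14.003 CPM in S51 bortezomib, 60.3, 53.8, 49.8 and 47.5 CPM in S51A vehicle and 55.4, 40.4, 39.01 and 33.3 CPM in S51A bortezomib libraries. All S51A libraries lay above all S51 libraries, under both treatments. The vehicle contrast was 2.25 ± 0.21 (SE, adjusted p = 5.24e-08) on the log2 scale, 4.75-fold. In total RNA the values were 10.3, 9.19, 8.72 and 7.99 CPM in S51 vehicle, 9.48, 8.87, 10.01 and 9.62 CPM in S51 bortezomib, 43.1, 38.5, 36.5 and 35.05 CPM in S51A vehicle and 37.3, 36.1, 34.7 and 30.3 CPM in S51A bortezomib libraries, and the contrast was 2.08 ± 0.083 (SE, adjusted p = 1.89e-16). Itga2 counts in S51 RPF libraries were few, 11 to 53 per library.

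Itgb5, the β partner of αv, followed the same pattern from a low level. Total RNA was 9.01, 7.89, 9.13 and 8.75 CPM in S51 vehicle, 9.48, 13.2, 10.6 and 10.7 CPM in S51 bortezomib, 23.9, 23.03, 25.1 and 19.2 CPM in S51A vehicle and 25.8, 26.5, 23.1 and 26.1 CPM in S51A bortezomib libraries, so that S51A libraries were above every S51 library. The vehicle contrast was 1.39 ± 0.092 (SE, adjusted p = 3.40e-12) in total RNA and 1.44 ± 0.29 (SE, adjusted p = 0.000888) in RPFs. RPF counts were only 4 to 55 per library, and RPF levels were 4.25, 2.42 and 5.23 CPM in S51 vehicle, 2.91, 8.61, 6.43 and 2.801 CPM in S51 bortezomib, 15.4, 11.6, 9.54 and 10.1 CPM in S51A vehicle and 9.34, 10.7, 10.9 and 9.67 CPM in S51A bortezomib libraries. Its RPF groups did not overlap between the vehicle-treated lines.

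Itga6, the laminin-binding partner of both β4 and β1, was among the most abundant subunits and differed with little spread. Its RPFs were 791, 679 and 834 CPM in S51 vehicle, 662, 683, 763 and 682 CPM in S51 bortezomib, 1391, 1388, 1463 and 1427 CPM in S51A vehicle and 1254, 1126, 1179 and 1145 CPM in S51A bortezomib libraries. The contrast was 0.88 ± 0.08 (SE, adjusted p = 4.79e-08), 1.84-fold, in RPFs and 0.76 ± 0.042 (SE, adjusted p = 1.05e-13) in total RNA. In total RNA it stood at 1213, 1252, 1294 and 1288 CPM in S51 vehicle, 1081, 982, 1189 and 1043 CPM in S51 bortezomib, 2120, 2120, 2175 and 2159 CPM in S51A vehicle and 1838, 1754, 1880 and 1739 CPM in S51A bortezomib libraries, with no overlap between lines.

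Itgav, the α subunit of the RGD-binding receptors, had RPFs of 248, 204 and 245 CPM in S51 vehicle, 304, 298, 336 and 324 CPM in S51 bortezomib, 425, 379, 391 and 349 CPM in S51A vehicle and 432, 395, 403 and 413 CPM in S51A bortezomib libraries. The vehicle contrast was 0.73 ± 0.09 (SE, adjusted p = 3.44e-06) in RPFs and 0.76 ± 0.04 (SE, adjusted p = 4.86e-14) in total RNA. The vehicle groups did not overlap in either readout. Without S51 vehicle RPF replicate 2 the RPF contrasts were 2.06 (adjusted p = 4.50e-11) for Itga2, 0.80 (adjusted p = 1.22e-11) for Itga6, 0.64 (adjusted p = 5.59e-08) for Itgav and 1.24 (adjusted p = 0.00159) for Itgb5.

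The remaining 5 subunits were not called under vehicle. Itgb6 passed the adjusted p but not the fold threshold, at 0.47 ± 0.15 (SE, adjusted p = 0.0245) in RPFs and 0.29 ± 0.06 (SE, adjusted p = 0.000174) in total RNA. RPF intervals held 0 for Itgb1, at 0.19 (95% interval -0.13 to 0.51, adjusted p = 0.374), and Itga3, at -0.15 (95% interval -0.37 to 0.063, adjusted p = 0.289). They also held 0 for Itga5, at -0.069 (95% interval -0.52 to 0.38, adjusted p = 0.846), and Itgb4, at 0.025 (95% interval -0.21 to 0.26, adjusted p = 0.895). In total RNA Itgb4 was 0.27 ± 0.032 (SE, adjusted p = 9.22e-08) and Itgb1 was -0.12 ± 0.035 (SE, adjusted p = 0.00519), both below the fold threshold. Total RNA of Itga3 was 0.093 ± 0.062 (SE, adjusted p = 0.195) and of Itga5 0.29 ± 0.17 (SE, adjusted p = 0.143). Without replicate 2 the RPF estimate for Itgb4 was 0.26 (adjusted p = 0.00428), and those of Itgb1, Itga3 and Itga5 took the opposite sign, at -0.073 (adjusted p = 0.508), 0.039 (adjusted p = 0.735) and 0.18 (adjusted p = 0.570).

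**Figure D2:**
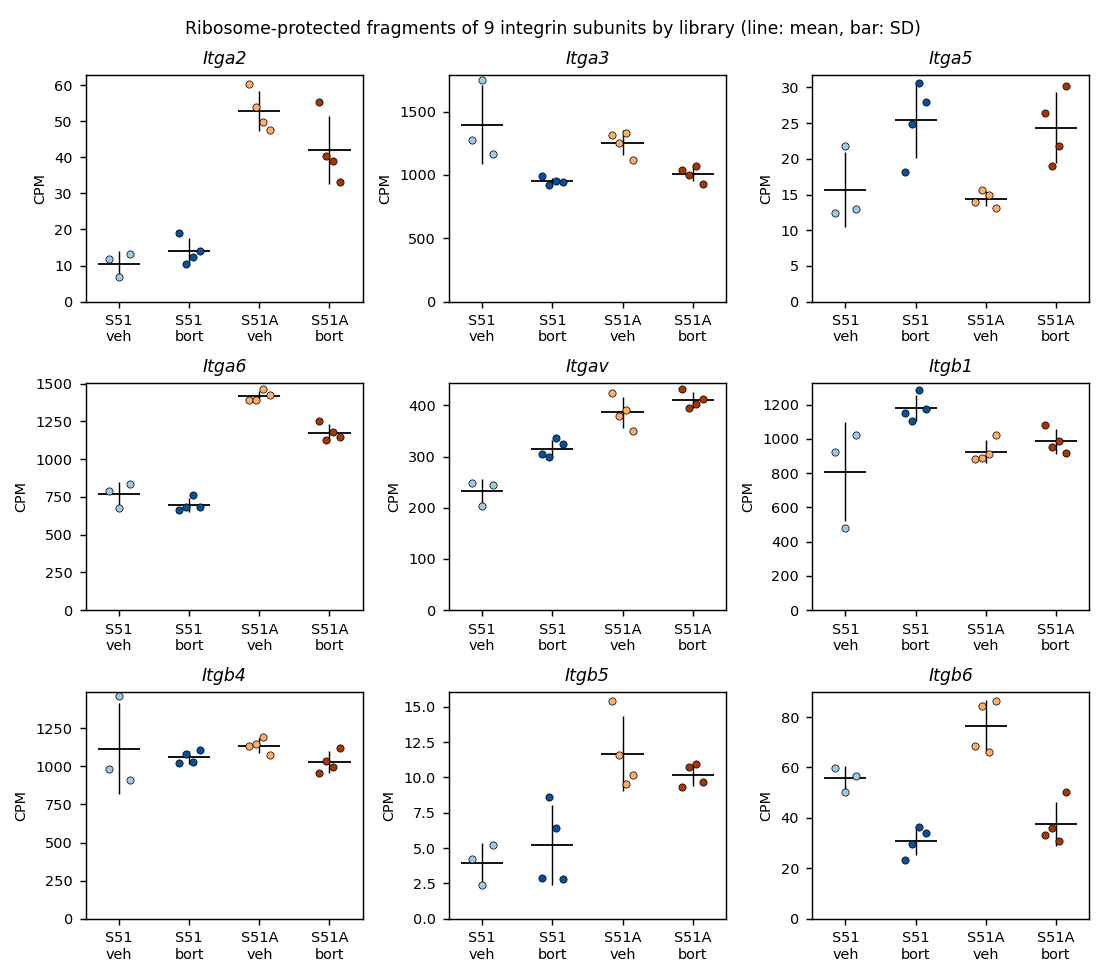
RPF level of the 9 integrin subunits in each of 15 libraries, in CPM on axes that start at 0, by line and treatment, with the group mean (line) and SD (bar). Itga2, Itga6, Itgav and Itgb5 are higher in S51A than in S51 vehicle libraries, and Itgb6 is lower in bortezomib than in vehicle libraries within each line.

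With bortezomib, Itga5 and Itgb6 were the subunits called. In S51 cells, 2 of the 9 were called in RPFs, Itga5 higher and Itgb6 lower (18.6% of all tested genes called), and total RNA called the same 2 (15.3%). In S51A cells RPFs again called these 2 (10.9%), as did total RNA (13.1%). The 2 treatment contrasts use separate libraries, whereas the S51 treatment contrast and the vehicle contrast between lines share the S51 vehicle libraries. For bortezomib in S51, on the adjusted p alone, 5 of the 9 passed in RPFs (30.8% of all tested genes) and 8 in total RNA (59.8%). Library ranges did not overlap for 4 subunits in RPFs and 8 in total RNA, as for 32.2% and 53.8% of all tested genes. For bortezomib in S51A, on the adjusted p alone, 4 of the 9 passed in RPFs (20.6% of all tested genes) and 6 in total RNA (56.4%). Library ranges did not overlap for 4 subunits in RPFs and 7 in total RNA, as for 28.1% and 49.3% of all tested genes.

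Itgb6, which pairs with αv alone, fell in both lines. Its RPFs were 59.9, 50.3 and 56.8 CPM in S51 vehicle, 23.3, 29.7, 36.3 and 34.2 CPM in S51 bortezomib, 68.7, 84.5, 65.98 and 86.4 CPM in S51A vehicle and 33.2, 36.1, 30.7 and 50.3 CPM in S51A bortezomib libraries. Every bortezomib library lay below every vehicle library of either line, except that S51A bortezomib replicate 4 and S51 vehicle replicate 2 both stood at 50.3 CPM. The RPF log2 fold change was -0.82 ± 0.17 (SE, adjusted p = 0.00112) in S51, 1.77-fold lower, and -1.03 ± 0.15 (SE, adjusted p = 2.45e-05) in S51A, 2.04-fold lower. Total RNA was 58.2, 62.8, 61.8 and 66.6 CPM in S51 vehicle, 26.2, 27.2, 27.2 and 24.3 CPM in S51 bortezomib, 72.8, 75.2, 74.1 and 83.2 CPM in S51A vehicle and 31.3, 35.2, 32.3 and 40.02 CPM in S51A bortezomib libraries. There the change was -1.25 ± 0.066 (SE, adjusted p = 5.41e-14) in S51 and -1.14 ± 0.063 (SE, adjusted p = 2.05e-13) in S51A.

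Itga5, the fibronectin receptor subunit, rose in both lines from a low level. RPFs were 12.4, 21.8 and 12.9 CPM in S51 vehicle, 18.2, 24.9, 30.6 and 28.01 CPM in S51 bortezomib, 14.02, 15.6, 14.9 and 13.2 CPM in S51A vehicle and 26.4, 19.005, 21.8 and 30.2 CPM in S51A bortezomib libraries, with 25 to 82 counts per library. Groups were apart in S51A but overlapped in S51, where vehicle replicate 2 was above 1 of the treated libraries. The RPF change was 0.78 ± 0.22 (SE, adjusted p = 0.0103) in S51 and 0.77 ± 0.19 (SE, adjusted p = 0.00602) in S51A. Total RNA was 4.18, 3.34, 2.7999 and 2.43 CPM in S51 vehicle, 7.16, 4.48, 6.42 and 7.16 CPM in S51 bortezomib, 3.51, 3.78, 4.87 and 3.33 CPM in S51A vehicle and 7.19, 7.302, 6.93 and 6.78 CPM in S51A bortezomib libraries, with changes of 0.99 ± 0.16 (SE, adjusted p = 7.71e-06) and 0.87 ± 0.15 (SE, adjusted p = 2.67e-05). The S51 RPF estimate was 1.04 (adjusted p = 0.000233) without replicate 2. It lost its call without S51 vehicle replicate 1, at 0.65 (adjusted p = 0.0508), or 3, at 0.63 (adjusted p = 0.0580), without S51 bortezomib replicate 3, at 0.65 (adjusted p = 0.0610), and when only the compared groups were fitted, at 0.75 (adjusted p = 0.0585).

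Among the 4 abundant subunits, RPF estimates for bortezomib were smaller than 1.5-fold. Itga3, the laminin receptor subunit, had RPFs of 1272, 1751 and 1168 CPM in S51 vehicle, 988, 920.1, 950.2 and 946 CPM in S51 bortezomib, 1319, 1254, 1335 and 1115 CPM in S51A vehicle and 1035, 1002, 1069 and 931 CPM in S51A bortezomib libraries. Its RPF estimate was -0.55 ± 0.10 (SE, adjusted p = 0.000383) in S51 and -0.31 ± 0.097 (SE, adjusted p = 0.0241) in S51A, below the fold threshold. Without S51 vehicle RPF replicate 2, the highest library, the S51 estimate was -0.36 (adjusted p = 0.000169). Vehicle and treated libraries did not overlap in either line. In total RNA it was -0.42 ± 0.062 (SE, adjusted p = 2.53e-06) and -0.29 ± 0.062 (SE, adjusted p = 0.000316).

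Itgb1, the common β subunit of focal adhesion integrins, had RPFs of 924, 479.6 and 1020 CPM in S51 vehicle, 1150, 1104, 1285 and 1175 CPM in S51 bortezomib, 882, 887, 909 and 1022 CPM in S51A vehicle and 1082, 955, 989 and 915 CPM in S51A bortezomib libraries. The estimate in S51 was 0.54 ± 0.16 (SE, adjusted p = 0.0112), and without replicate 2 it was 0.28 (adjusted p = 0.00467). In S51A it was 0.091 (95% interval -0.20 to 0.39, adjusted p = 0.705). The total RNA estimates were 0.17 ± 0.035 (SE, adjusted p = 0.000145) in S51 and 0.12 ± 0.035 (SE, adjusted p = 0.00486) in S51A. With S51 vehicle replicate 1 or 3 left out in place of replicate 2, both Itgb1 (up to 0.72) and Itga3 (down to -0.69) passed the fold threshold in S51 RPFs. Replicate 2 held the lowest Itgb1 and the highest Itga3 value of its group.

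Itga6 stood at -0.14 ± 0.079 (SE, adjusted p = 0.195) in S51, or -0.22 (adjusted p = 0.0152) without replicate 2, and at -0.27 ± 0.073 (SE, adjusted p = 0.0105) in S51A RPFs, and at -0.23 ± 0.042 (SE, adjusted p = 3.84e-05) and -0.25 ± 0.042 (SE, adjusted p = 1.75e-05) in total RNA. Itgb4, its hemidesmosomal partner, had RPFs of 983, 1460 and 911 CPM in S51 vehicle, 1020, 1080, 1027 and 1110 CPM in S51 bortezomib, 1132, 1144, 1195 and 1072 CPM in S51A vehicle and 959, 1036, 996 and 1124 CPM in S51A bortezomib libraries. The RPF estimates for Itgb4 were -0.076 (95% interval -0.31 to 0.16, adjusted p = 0.649) in S51, or 0.16 (adjusted p = 0.0807) without replicate 2, and -0.14 (95% interval -0.36 to 0.075, adjusted p = 0.374) in S51A. Total RNA of Itgb4 was 370.3, 348, 339 and 337 CPM in S51 vehicle, 452, 443, 439.7 and 429 CPM in S51 bortezomib, 421, 415, 429 and 418 CPM in S51A vehicle and 453, 430.3, 436 and 438 CPM in S51A bortezomib libraries, with estimates of 0.34 ± 0.032 (SE, adjusted p = 2.45e-09) in S51 and 0.063 ± 0.032 (SE, adjusted p = 0.103) in S51A.

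Itgav was 0.44 ± 0.092 (SE, adjusted p = 0.000904) in S51 RPFs and 0.39 ± 0.041 (SE, adjusted p = 1.24e-08) in S51 total RNA, against 0.092 ± 0.082 (SE, adjusted p = 0.475) and 0.14 ± 0.04 (SE, adjusted p = 0.00492) in S51A. Its total RNA was 185, 176, 172 and 179 CPM in S51 vehicle, 249, 227, 239 and 216 CPM in S51 bortezomib, 317, 307, 285 and 299 CPM in S51A vehicle and 330.1, 340.5, 327 and 330.1 CPM in S51A bortezomib libraries. S51 vehicle and bortezomib libraries did not overlap in either readout, and S51A libraries stood above all S51 libraries in total RNA. Itga2 and Itgb5 had wide RPF intervals in S51, 0.34 (95% interval -0.20 to 0.88, adjusted p = 0.349) and 0.27 (95% interval -0.50 to 1.05, adjusted p = 0.611). Without replicate 2, the lowest library for both, they were 0.15 (adjusted p = 0.699) and 0.085 (adjusted p = 0.898). In S51A they were -0.31 (95% interval -0.64 to 0.021, adjusted p = 0.183) and -0.19 (95% interval -0.68 to 0.31, adjusted p = 0.641). Their total RNA estimates were 0.073 ± 0.097 (SE, adjusted p = 0.533) and 0.34 ± 0.10 (SE, adjusted p = 0.00547) in S51, and -0.15 ± 0.071 (SE, adjusted p = 0.0849) and 0.16 ± 0.082 (SE, adjusted p = 0.102) in S51A.

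**Figure D3:**
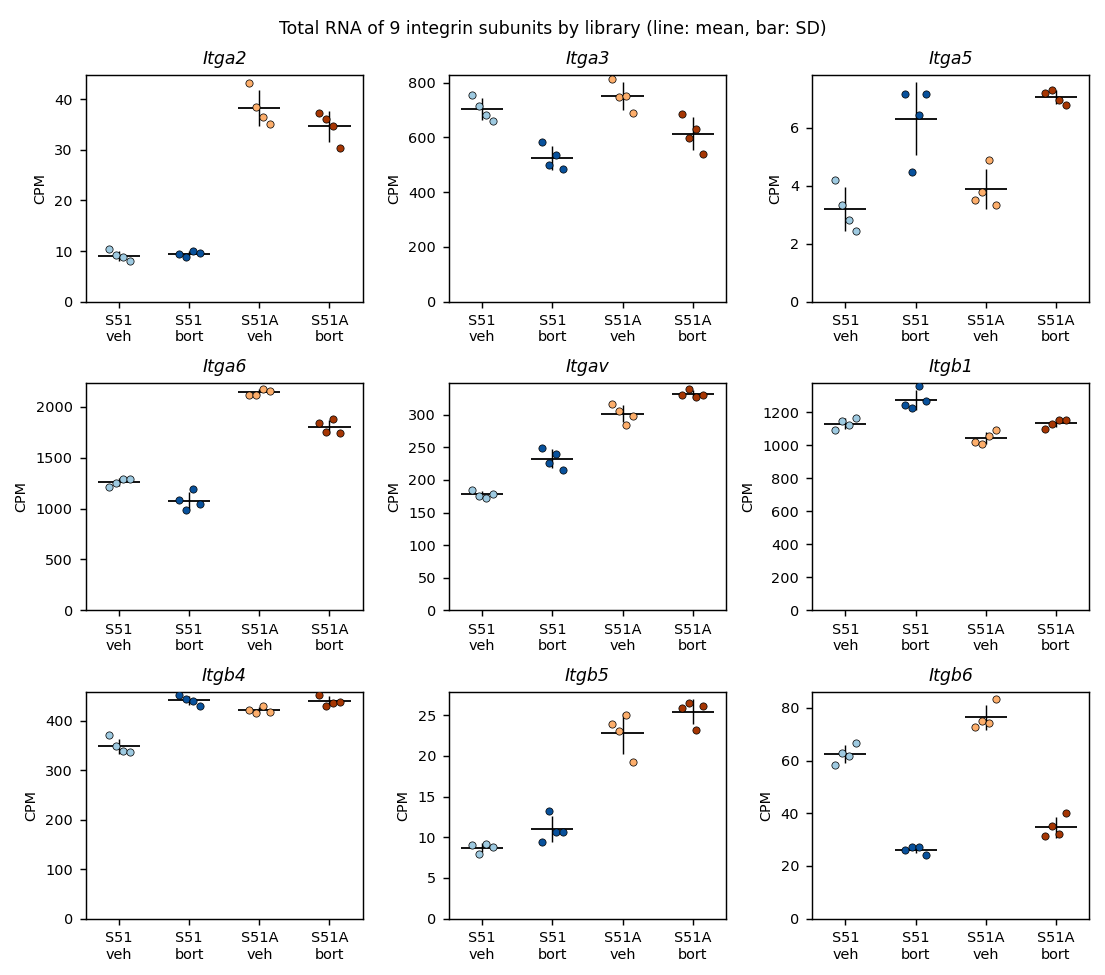
Total RNA level of the 9 integrin subunits in each of 16 libraries, in CPM on axes that start at 0, by line and treatment, with the group mean (line) and SD (bar). Itgb6 falls and Itga5 rises with bortezomib in either line.

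The difference between the lines in their response was tested directly. No subunit was called in RPFs (1.86% of all tested genes called) or in total RNA (2.09%) by edgeR, and 3 and 2 of the 9 had an unadjusted p under 0.05 (16.1% and 34.0% of all tested genes), while DESeq2 also called none. In total RNA, Itgb4, at 0.28 ± 0.046 (SE, adjusted p = 0.000138), and Itgav, at 0.25 ± 0.057 (SE, adjusted p = 0.00266), passed the adjusted p, as did 21.6% of all tested genes, with more increase in S51 than in S51A at folds below 1.5. The largest RPF estimate was that of Itga2, at 0.64 (95% interval 0.012 to 1.28, adjusted p = 0.302). For Itgb1 it was 0.45 (95% interval 0.015 to 0.89, adjusted p = 0.295), for Itgav 0.35 (95% interval 0.096 to 0.60, adjusted p = 0.146) and for Itga3 -0.24 (95% interval -0.54 to 0.058, adjusted p = 0.440). Without replicate 2, the RPF estimate for Itgb4 went from 0.067 to 0.30 (adjusted p = 0.0432), and that for Itgb1 from 0.45 to 0.19 (adjusted p = 0.338). The estimates for Itga2 and Itga3 were then 0.45 (adjusted p = 0.456) and -0.045 (adjusted p = 0.868).

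Under bortezomib, 3 of the 9 were called lower in S51 than in S51A in RPFs, Itga2, Itga6 and Itgb5, all among the 4 called under vehicle in other libraries (17.7% of all tested genes called), and total RNA called the same 3 (20.0%). Their RPF log2 fold changes, S51 over S51A, were -1.603 ± 0.21 (SE, adjusted p = 4.99e-06), -0.75 ± 0.074 (SE, adjusted p = 1.06e-07) and -0.98 ± 0.31 (SE, adjusted p = 0.0198). Leaving out S51 bortezomib replicate 1 or 4 ended the RPF call of Itgb5, at -0.82 (adjusted p = 0.0645) and -0.76 (adjusted p = 0.0854). On the adjusted p alone, 4 of the 9 passed in RPFs (31.5% of all tested genes) and 7 in total RNA (65.7%). Library ranges did not overlap for 5 subunits in RPFs and 6 in total RNA, as for 34.4% and 56.9% of all tested genes. Itgav was -0.38 ± 0.084 (SE, adjusted p = 0.00153) in RPFs and -0.51 ± 0.04 (SE, adjusted p = 5.17e-11) in total RNA, below the fold threshold. Itgb1 was 0.26 ± 0.14 (SE, adjusted p = 0.176) in RPFs and 0.17 ± 0.035 (SE, adjusted p = 0.000159) in total RNA. S51 vehicle RPF replicate 2 is not in this contrast but shares its fit. Without that library the RPF estimate for Itgb1 was 0.26 ± 0.063 (SE, adjusted p = 0.000928), again below the fold threshold.

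Translation efficiency (TE), the RPF change relative to the total RNA change, was called for none of the 9 subunits in any comparison. All tested genes were called at 5.27% for bortezomib in S51, 0.983% for bortezomib in S51A, 0.0846% between vehicle-treated lines, 3.07% between bortezomib-treated lines and 1.29% for the difference in response. At an unadjusted p under 0.05 edgeR gave 3 subunits for bortezomib in S51 and 1 between vehicle-treated lines, and 0 in the other comparisons, with 23.0%, 14.7%, 6.52%, 18.3% and 11.9% of all tested genes in these 2 and for bortezomib in S51A, between bortezomib-treated lines and for the difference in response. DESeq2 also called none of the 9. For bortezomib in S51, Itgb4 was -0.41 ± 0.12 (SE, adjusted p = 0.0211), past the adjusted p (9.59% of all tested genes) at a fold of 1.33, while without S51 vehicle RPF replicate 2 it was -0.18 (adjusted p = 0.129). Itgb1 was 0.37 (95% interval 0.038 to 0.69, adjusted p = 0.158) and, without that replicate, 0.11 (adjusted p = 0.498). Itgb6 was 0.44 (95% interval 0.063 to 0.81, adjusted p = 0.137). In S51A the TE estimates with bortezomib ran from -0.34 for Itgb5 to 0.089 for Itgb6, and between vehicle-treated lines from -0.34 for Itga5 to 0.31 for Itgb1. Without S51 vehicle RPF replicate 2 these ends between vehicle-treated lines were -0.11 (adjusted p = 0.982) for Itga5 and 0.045 (adjusted p = 0.974) for Itgb1. The subunit with an unadjusted p under 0.05 there, Itgb4, went from -0.24 to -0.010 (adjusted p = 0.998). Standard errors of TE in S51 with bortezomib ran from 0.087 to 0.39, so that smaller shifts in the low subunits were not detectable at this depth.

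**Figure D4:**
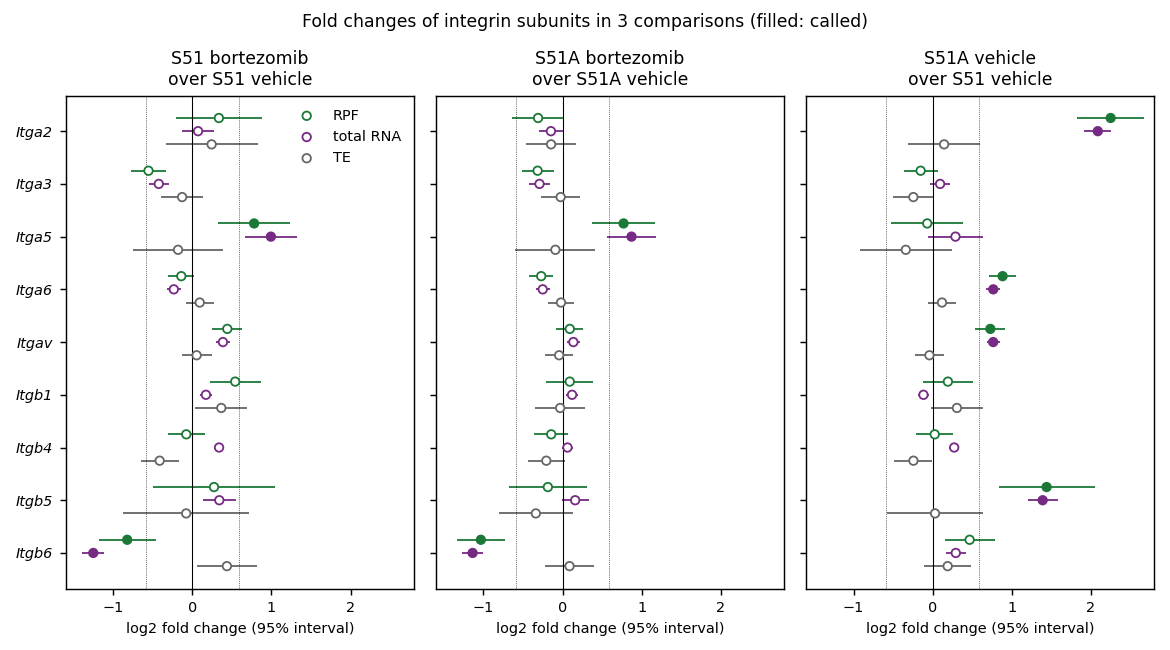
Log2 fold changes with 95% intervals of the 9 integrin subunits in RPFs, total RNA and TE for bortezomib in S51, bortezomib in S51A and the vehicle-treated lines, with filled symbols for called values and dotted lines at a fold of 1.5. RPF and total RNA symbols are filled for the same genes in each panel, and no TE symbol is filled.

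Because subunits work in pairs, the per-length levels of all 18 alpha and 8 beta genes were summed in each library. The 9 subunits made up 98.7 ± 0.215% of that RPF sum in S51 vehicle and 94.6 ± 0.221% in S51A vehicle libraries. The RPF ratio of alpha to beta was 1.11 to 1.63 in S51 vehicle, 0.851 to 0.890 in S51 bortezomib, 1.21 to 1.41 in S51A vehicle and 1.13 to 1.204 in S51A bortezomib libraries. In total RNA it was 1.09 to 1.17, 0.813 to 0.905, 1.41 to 1.55 and 1.14 to 1.297 in the same order. Treated libraries lay below vehicle libraries of their line in each readout. The highest S51 vehicle RPF value, 1.63, came from replicate 2. These ratios are descriptions of RNA and ribosome density and were not tested.

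The 5 alpha members summed to 1.87, 4.11 and 1.65 times Itgb1 in RPFs of S51 vehicle replicates 1, 2 and 3, of which replicate 2 stood far above the others. They summed to 1.26 ± 0.0409 times in S51 bortezomib, 2.503 ± 0.255 times in S51A vehicle and 1.99 ± 0.0633 times in S51A bortezomib libraries (SD). The sum includes Itga6 and Itgav, whose products have partners other than β1, so it does not measure an excess of alpha subunits over β1. Itga3 made up 54.6, 65.8 and 51.6% of alpha RPF density in the same 3 S51 vehicle libraries and 40.4 ± 1.57% (SD, n = 4) in S51A vehicle. Itga6 made up 33.2, 24.99 and 36.1%, against 44.8 ± 2.09% in S51A vehicle. Every S51 vehicle library was above the S51A vehicle range for Itga3 and below it for Itga6, replicate 2 being the farthest. For the hemidesmosomal pair, Itgb4 over Itga6 was 0.747, 1.29 and 0.657 in S51 vehicle, highest in replicate 2, and 0.482 ± 0.0203 in S51A vehicle RPFs. In total RNA the pair ratio was 0.265 ± 0.0195, 0.394 ± 0.0320, 0.188 ± 0.00208 and 0.233 ± 0.00803 in S51 vehicle, S51 bortezomib, S51A vehicle and S51A bortezomib.

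**Figure D5:**
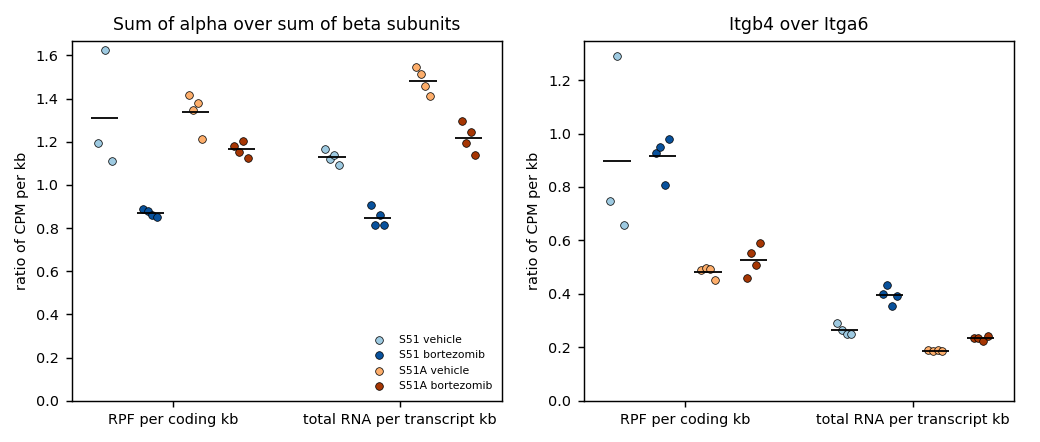
Ratio of summed alpha to summed beta subunits (left) and of Itgb4 to Itga6 (right) by library, from CPM per kilobase of RPFs and of total RNA, with group means as lines. S51 bortezomib libraries have the lowest alpha to beta ratios, 0.851 to 0.890 in RPFs, and S51A libraries have the lower Itgb4 to Itga6 ratios.

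Of the 17 other integrin genes, 13 had at most 3 RPF counts in every library and 2, Itgb7 and Itga2b, were abundant enough to test. Itgb7, the β partner of leukocyte integrins, had RPFs of 31.2, 43.5 and 33.4 CPM in S51 vehicle, 34.9, 25.8, 27.99 and 36.4 CPM in S51 bortezomib, 214, 209.9, 237 and 210.1 CPM in S51A vehicle and 208, 202, 198 and 210.1 CPM in S51A bortezomib libraries. Between vehicle-treated lines it was 2.61 ± 0.12 (SE, adjusted p = 2.40e-12) in RPFs and 2.85 ± 0.053 (SE, adjusted p = 1.14e-22) in total RNA, estimates larger than those of any of the 9 subunits. Its RPFs with bortezomib in S51 were -0.18 ± 0.14 (SE, adjusted p = 0.358). The leukocyte marker sum was 7.44 to 16.9 CPM in S51 vehicle and 8.32 to 16.4 CPM in S51A vehicle RPFs, with the α partners Itga4 and Itgae at 0 RPF counts in every library. In total RNA that sum was 3.27 to 4.04 CPM in S51 vehicle and 5.57 to 6.51 CPM in S51A vehicle libraries, without overlap. Cd68, a macrophage marker and the 1 of the 6 abundant enough to test, was called higher in S51A there, at 0.67. The part of these markers in the Itgb7 result was not tested. Itga2b had RPF log2 fold change -1.07 ± 0.40, adjusted p = 0.0490, from at most 16 counts per library, and 0.11 with bortezomib in S51.

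Of the 4 hemidesmosome partners, all tested, none was called in RPFs for bortezomib in S51 or between vehicle-treated lines, where 18.6% and 15.8% of all tested genes were, and the medians were 0.12 and 0.19. Plec, which links α6β4 to keratin, had RPF log2 fold change 0.50 ± 0.12, adjusted p = 0.00336 with bortezomib in S51 and RPF log2 fold change 0.29 ± 0.12, adjusted p = 0.0715 between lines. Dst, the other plakin linker, had RPF log2 fold change -0.44 ± 0.10, adjusted p = 0.00279 with bortezomib in S51, where total RNA was 0.23 ± 0.051, adjusted p = 0.000483. Its TE was called lower there (5.27% of all tested genes called) and in S51 than in S51A under bortezomib (3.07%). With bortezomib in S51A, Dst was called lower in RPFs (10.9%) and total RNA (13.1%). In total RNA it was called higher in S51 than in S51A under bortezomib (20.0%) and in the difference in response (2.09%). No other partner was called in any comparison. Cd151, a tetraspanin that binds laminin-binding integrins, had RPF log2 fold change 0.20 ± 0.083, adjusted p = 0.0711 between lines.

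Of 30 integrin activators and adhesion linkers, 27 were tested in RPFs. With bortezomib in S51, 3 were called higher (Cd81, Flna and Vcl) and 4 lower (Pxn, Src, Zyx and Fermt1), with a median of -0.12, where 7.38% of all tested genes were called higher and 11.2% lower. Src, the kinase downstream of integrins, had RPF log2 fold change -1.42 ± 0.12, adjusted p = 7.14e-09. Fermt1, the kindlin of keratinocytes that activates β subunits, had RPF log2 fold change -1.22 ± 0.20, adjusted p = 6.96e-05. With bortezomib in S51A, 0 linkers were called higher and 2 lower in RPFs, Src and Fermt1 (4.19% and 6.67% of all tested genes). For the RPF difference in response, S51 minus S51A, Flna was called higher and Src lower (1.86% of all tested genes called). Between vehicle-treated lines 2 were higher (Cd81 and Tns3) and 3 lower (Slc3a2, Zyx and Kank2) in S51A, with a median of -0.049, where 9.19% of all tested genes were called higher and 6.62% lower. Kank2, which binds talin at the rim of adhesions, had RPF log2 fold change -1.10 ± 0.18, adjusted p = 8.14e-05. Tln2, a talin, had RPF log2 fold change -0.82 ± 0.41, adjusted p = 0.145 and was not called.

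Of 29 matrix ligands, 17 were tested in RPFs. Between vehicle-treated lines 6 were higher in S51A (Col7a1, Ccn1, Lama3, Lamb2, Thbs1 and Ltbp1) and 0 lower, with a median of 0.45 against 0.014 over all genes, of which 9.19% were called higher. Ltbp1, which tethers latent TGF-β to the matrix, had RPF log2 fold change 2.19 ± 0.19, adjusted p = 1.91e-08. Thbs1, thrombospondin, had RPF log2 fold change 2.15 ± 0.14, adjusted p = 2.04e-10. With bortezomib in S51, 3 were lower (Ccn2, Tgfb1 and Thbs1) and 0 higher, with a median of -0.096, where 11.2% of all tested genes were called lower. Ccn2, a matricellular integrin ligand, had RPF log2 fold change -1.28 ± 0.16, adjusted p = 3.73e-06, and Tgfb1, whose latent form αvβ6 activates, had RPF log2 fold change -0.81 ± 0.15, adjusted p = 0.000414. With bortezomib in S51A, 0 ligands were called higher and 2 lower in RPFs, Tgfb1 and Thbs1 (4.19% and 6.67% of all tested genes). Ccn2 was called lower in the RPF difference in response, S51 minus S51A (1.86% of all tested genes called).

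The 2 subunits with the widest range of RPF group means were Itga2 (2.29 on the log2 scale) and Itgb5 (1.42). Likeness was the root mean square difference of centred log2 CPM (prior count of 2) over the 8 group means of both readouts, among 9424 genes. Nearest to Itga2 were Ltbp1 (0.0882), Cd82 (0.103) and Dsg1b (0.129), and nearest to Itgb5 were L1cam (0.0749), Cd44 (0.0836) and Glcci1 (0.0987). Ltbp1 is also one of the matrix ligands above.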

How the data were processed

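Ribosome-protected fragments were sequenced in 15 libraries and ribosomal RNA-depleted total RNA in 16. The authors deposited raw counts per gene in a table for each kind of library; the submitters' processing notes name mm10, Bowtie2, featureCounts and DESeq2 without a role or version. By the study's methods RPFs were counted in coding sequence without the first 15 and last 5 codons, and the part of the transcript counted for total RNA is not given in the sources used here. The labels and the text of the study differ on the treatment time, and the time of the labels is used.

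Counts were analysed with edgeR 4.0.16 in R 4.3.3. Genes were kept by filterByExpr (minimum count 10), scaled by TMM factors and tested by the quasi-likelihood test with all 4 groups in 1 fit for each kind of library. TE was the interaction of contrast and kind over all 31 libraries. P-values were adjusted by Benjamini-Hochberg over all genes tested, 9457 for RPFs and TE and 11708 for total RNA, and a gene was called at an adjusted p under 0.05 and a fold above 1.5. The alternatives were DESeq2 1.42.0, RLE factors, library sizes alone, other filters and thresholds, fits of the compared groups alone, blocks on the replicate number and leaving out each library. CPM use TMM-scaled totals. Lengths and promoter sequences are RefSeq's, GRCm38.p6. Named are the 9 subunits and, of each other list, the 2 genes with the largest RPF change with bortezomib in S51 and the 2 with the largest between vehicle-treated lines, with Eif2s1, Atf4 and Hspa1b as checks. The subunits and lists were chosen with earlier results of these data known. On simulated counts for bortezomib in S51 (9384 genes for RPFs, 11618 for total RNA), changes of 1 on the log2 scale were called for 41.0000% of genes in RPFs and 94.9% in total RNA. In TE (9418 genes) the share was 44%, and 24% for changes of 0.8. These counts were drawn with a fixed dispersion for each kind of library, not estimated from these data, so that the shares need not hold here. No library was a repeat of another: the least chi-square per gene within a group was 1.65 in RPFs and 2.75 in total RNA.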

Additional observations from a re-analysis of the deposited data

Results flagged for a closer look

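A pair of total RNA responses differed between the lines by the test of the difference itself, fitted with edgeR and adjusted over all tested genes. Itgb4 gave a bortezomib response (log2) of 0.34 in S51 and 0.063 in S51A, a difference of 0.28 ± 0.046 (SE, adjusted p = 0.000138). Itgav gave 0.39 in S51 and 0.14 in S51A, a difference of 0.25 ± 0.057 (SE, adjusted p = 0.00266). Both differences are below 1.5-fold, and 21.6% of all tested genes passed the same adjusted p. In RPFs the differences were 0.067 (95% interval -0.25 to 0.39, adjusted p = 0.877) for Itgb4 and 0.35 (95% interval 0.096 to 0.60, adjusted p = 0.146) for Itgav. The RPF value for Itgb4 depended on S51 vehicle RPF replicate 2. Without that library it was 0.30 (adjusted p = 0.0432), again below 1.5-fold. The RPF difference for Itgav was then 0.27 and did not pass the adjusted p. Among the 63 sets of 4 libraries examined, 0 held a library far from the others, where chance gives about 3.15. S51 vehicle RPFs, with 3 libraries, were not among these sets.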

How the results depend on the processing

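Of 132 counts of called subunits under settings other than leaving out a library, 119 were within 1.5 times the reported count. The reported count was 0 in every TE comparison and for the difference in response in RPFs and total RNA. For these, agreement only means 0 again. With the fold threshold dropped, counts in RPFs were 5 for bortezomib in S51 (30.8% of all tested genes) and 4 in S51A (20.6%). Those in total RNA were 8 in S51 (59.8%), 6 in S51A (56.4%) and 2 for the difference in response (21.6%). Total RNA counts between lines were 7 under vehicle (63.8%) and 7 under bortezomib (65.7%). The TE count was 1 for bortezomib in S51 (9.59%). With a fold above 2, total RNA counts were 1, 1 and 2 for bortezomib in S51, in S51A and between vehicle-treated lines. Fitting the compared groups alone gave 1 subunit in RPFs with bortezomib in S51. For a fold above 2 and for the compared groups alone, the shares of all tested genes are not given here. With library sizes alone, which moved the median of all genes to -0.16 and -0.13 in total RNA with bortezomib in S51 and S51A and to 0.15 in TE, 1 subunit, Itgb6, was called in TE in S51 at 0.59 (adjusted p = 0.0241); Itga2 in S51 and Itgb4 in S51A turned to -0.081 (adjusted p = 0.492) and -0.053 (adjusted p = 0.180) in total RNA. The alpha to beta ratio of total RNA by coding length, chosen after seeing the data, was 0.896, 1.64 and 1.36 in S51 bortezomib, S51A vehicle and S51A bortezomib. Itgb5 could not be tested in RPFs with at least 10 counts in every library. Apart from the settings above, the cause of these differences was not tested.

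Leaving out 1 library gave 1 to 3 called subunits in RPFs with bortezomib in S51. Signs turned within these ranges: in RPFs, -0.23 to 0.16 for Itgb4 with bortezomib in S51, -0.31 to 0.039 for Itga3, -0.24 to 0.18 for Itga5, -0.073 to 0.36 for Itgb1 and -0.14 to 0.26 for Itgb4 between vehicle-treated lines, and -0.082 to 0.30 for Itgb4 in the difference in response, where its TE ran from -0.36 to 0.027. The ends of these ranges came from leaving out S51 vehicle RPF replicate 2 or 3.

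With the replicate number as a block, 2, 2, 4, 3 and 0 subunits were called in RPFs and 2, 2, 4, 3 and 0 in total RNA in the 5 comparisons, and 0 in TE, so that the block changed no count. Same-numbered libraries of different groups correlated at -0.158 to 0.261 (median 0.0325) in RPFs, against a median of -0.0223 for other numbers. In total RNA they correlated at 0.00213 to 0.191 (median 0.0922), against -0.167 to 0.0992 (median -0.0344) for other numbers. Same-numbered total RNA libraries were thus somewhat more alike, and whether the numbers pair libraries of different groups was not tested. The study took both kinds of RNA from 1 lysate. RPF and total RNA libraries of the same group and number correlated at -0.0560 to 0.346 (median 0.113), against a median of -0.0315 for other numbers, and with each such pair as a block 0 subunits were called in TE in the 5 comparisons. RPF depth limits the low subunits: Itgb5 had 4 to 55 counts per library.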
